A study of Sus scrofa with 24 samples.

Results

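circRNA_24032 is a single back-splice junction in the immunoglobulin kappa light chain locus of the pig, 1 of the 3000 circRNAs in the deposited table. It was selected on its read counts across the stages, which were already known, and is identified by its name in the table, so its course with age is given here as a description, with no test. Its ends lie at chr3:57235342-57272274 of Sscrofa11.1 on the plus strand, a span of 36933 bases. Spleen RNA of 24 healthy Meishan pigs, a Chinese indigenous breed, was sequenced with 3 pigs at each of 8 ages and 1 library per pig. The younger ages were 1d, 7d, 14d, 21d and 28d, and the older ones were 35d, 120d and 180d, in days from birth, so the stages compare different animals. All pigs received the same standard diet. The table counts reads that cross a back-splice, in which the splice donor of 1 exon is ligated to an acceptor lying before it in the gene. The methods of the paper describe removal of ribosomal RNA and digestion with RNase R, an enzyme that removes linear RNA, whereas the sample labels name a TruSeq Stranded Total RNA kit with Ribo-Zero Gold and no RNase R.

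The kappa light chain is one of the chains of an antibody. Its locus holds many variable (V) gene segments, each with a short leader exon and a V exon, and joining and constant segments downstream of them. In a developing B cell, recombination of the DNA joins 1 V segment to a joining segment, and the transcript is then spliced from the leader exon to the joined V exon and on to the constant exon. Plasma cells, the antibody-secreting cells that B cells give rise to, make very large amounts of this RNA, and the spleen is one of the sites where they form. Piglets are born with little antibody of their own and take it up from colostrum.

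In RefSeq's annotation, the acceptor of the junction was the first base of exon 2 of LOC100736878, named immunoglobulin kappa variable 2D-28-like. This V segment gene is annotated from 57214388 to 57321338, and the first of its 4 exons starts at 57234809. Exon 2 is its V exon and runs over 310 bases to 57235651. The donor was the last base of exon 1 of LOC106509767, a lncRNA gene, an exon of 152 bases from 57272123. The 2 ends thus belonged to exons of different genes, whereas 2848 of the 3000 circRNAs joined exon ends of 1 gene within 1 base. LOC106509767, from 57272123 to 57277238 on the plus strand, lies inside the span of LOC100736878 on the same strand. The interval overlapped 4 annotated genes, and 6 V segment genes, 2 on the plus and 4 on the minus strand, lay within 500 kb. The table holds only part of the circRNAs that the paper reports. Of its 3000, circRNA_24032 was the only one that overlapped any of the 80 immunoglobulin and T cell receptor segment genes placed on chromosomes.

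The bases beside the junction are shown because the donor exon and the leader exon of the V gene end in the same sequence. Capitals mark the GT that follows a splice donor, the AG that precedes an acceptor and, in both joined sequences, the bases of the V exon. The positions of the first 3 are chr3:57272247-57272276, chr3:57234932-57234961 and chr3:57235340-57235369 on the plus strand of Sscrofa11.1 (RefSeq).
donor exon of the junction, LOC106509767 exon 1: ctggggctcctcctgctctgggtcccagGT
leader exon of the V gene, LOC100736878 exon 1: ctggggctcctcctgctctgggtcccagGT
acceptor exon of the junction, LOC100736878 exon 2: AGgatccgatggggccattgtgctgaccca
back-splice join of circRNA_24032: tgctctgggtcccagGATCCGATGGGGCCA
ordinary join of LOC100736878 exons 1 and 2: tgctctgggtcccagGATCCGATGGGGCCA

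The donor exon and exon 1 of LOC100736878 were identical over their last 114 bases and differed at 3 of 151 bases over their whole length (98.01% identity). Exon 1 of LOC100736878 ends 382 bases before the acceptor, so that ordinary splicing over this intron gives the same join as the back-splice over 36933 bases. The 2 joins share 424 bases, 114 before the junction and all 310 of the V exon, and a read that lies within them fits both. Whether a counted read came from a circle or from the ordinary transcript of the V gene cannot be told apart from these bases. The joined sequence starts with ATG at the annotated start of the leader, and its 359 coding bases held 0 in-frame stop codons.

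**Figure D1:**
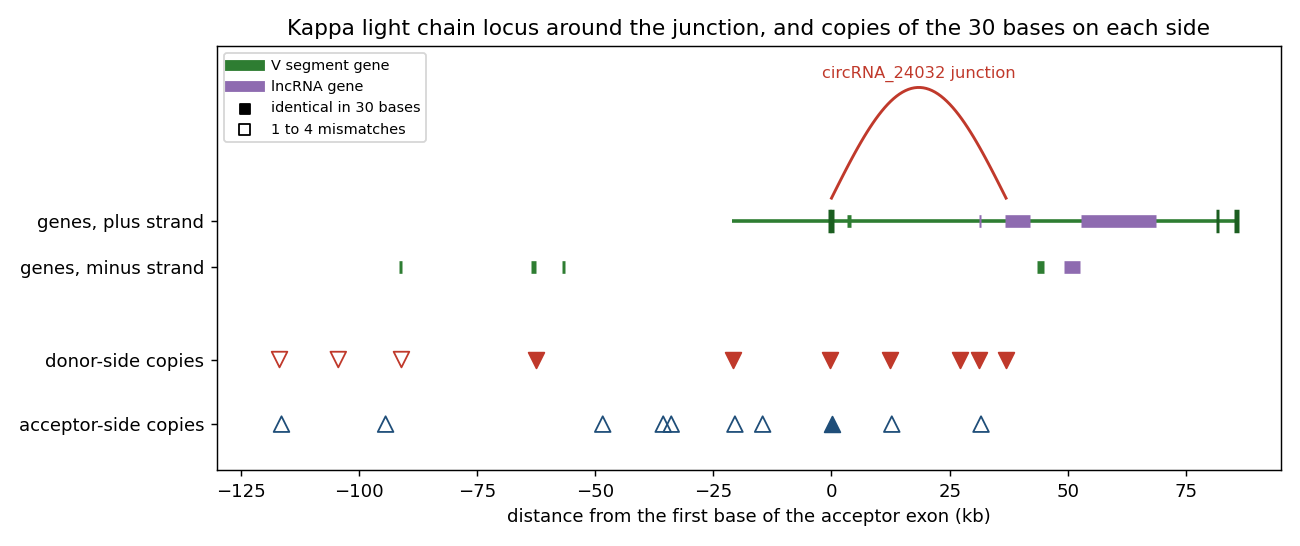
Annotated V segment and lncRNA genes by strand, and copies of the 30 bases on each side of the junction that have a splice signal (GT after the donor side, AG before the acceptor side), by distance in kb from the first base of the acceptor exon; thick dark green bars are the 4 exons of LOC100736878, the arc is the junction, and its own sides are among the filled symbols. Besides its own, 6 filled donor-side symbols mark identical copies, while the 9 acceptor-side copies are all open.

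The end of the donor exon was repeated exactly along the locus and the start of the V exon was not. On chromosome 3, 6 other places held the last 30 bases of the donor exon without a mismatch, all followed by GT, between 57172855 and 57266600. Of these, 5 were on the plus strand and 2 lay before the acceptor, at 57214500 to 57214529 and in exon 1 of LOC100736878. One copy was the end of an exon of the lncRNA gene LOC110259983, and the copy on the minus strand that of LOC110259982, an immunoglobulin kappa variable 2-29-like gene. With up to 2 mismatches 8 copies were followed by GT, and 1 of them shows how a near copy differs, with its mismatch in capitals.
chr3:57118543-57118572, plus strand: tcctggggctcctcTtgctctgggtcccag

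The first 30 bases of the V exon had 0 identical copies elsewhere on chromosome 3. The nearest, at 57220762 to 57220791, had 2 mismatches in 30 bases and 5 in the first 100 bases. The other 8 copies with AG before them had 3 or 4 mismatches in 30 bases and from 5 to 54 in 100 bases. The V exon side of a read therefore fits 1 place on chromosome 3 without a mismatch at this length, and the leader side fits 7.

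Among the 3000 circRNAs such copies were rare. A copy of 30 bases that ordinary splicing could use within 500 kb was found for 4 of them (0.133%), and a copy of 50 bases for 2 (0.067%), circRNA_24032 and circRNA_05876. circRNA_05876 lies on chromosome 10 between exon ends of AKR1C1, an aldo-keto reductase gene, and LOC733635. Its mean was 6.84 TMM-scaled counts, with 9.34 ± 7.58 at 180d, against 5.62 ± 7.07 at 1d (SD, 3 pigs each). The other 2, of LOC110260108 (15.3) and KLHL7 (8.68), also had low means beside the 463 of circRNA_24032.

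Other circRNAs within 500 kb were sought for contrast in the table. It lists only part of those that the paper reports, so unlisted ones were not seen. Of the 231 listed on chromosome 3, 0 others lay within this distance. The nearest lay outside this limit, at 787.3 kb in RMND5A (circRNA_24069), a ubiquitin ligase subunit, and at 806.5 kb in TMEM131 (circRNA_24006), a transmembrane protein of collagen secretion. Their mean TMM-scaled counts were 4.84 and 6.24. The median raw count, over all circRNAs and libraries of the table, was 7.

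circRNA_24032 was the most abundant junction of the table. Its reads summed to 13393 over the 24 libraries, the largest sum, and its 1245 reads in 1 library of 180d were the highest single count. It had reads in every library. Library totals of the table ran from 16273 to 87867 back-splice reads (median 37510), so a scaling factor per library (TMM, the trimmed mean of M values) was used to bring counts to 1 common library size (the geometric mean of the effective sizes), and such a value is called a TMM-scaled count. The mean over the 24 libraries was 463 TMM-scaled counts, followed by 385 for circRNA_01598 of SLTM, an RNA-binding protein.

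The junction had its lowest levels at 1d and 7d. At 1d it had 13.9, 11.5 and 27.1 TMM-scaled counts in replicates 1 to 3, which rest on 7, 7 and 18 reads. At 7d it had 119, 60.2 and 49.5. The values at 7d all lay above those at 1d, at 76.1 ± 37.3 against 17.5 ± 8.40 (SD, n = 3 pigs each).

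At 14d the 3 pigs differed 18.6-fold, with 1231, 227 and 66.1 TMM-scaled counts. The first had the highest value of all 24 libraries and the third lay within the range of 7d. At 21d the values were 389, 608 and 358, and at 28d they were 1069, 239 and 391. The stages from 14d to 28d therefore overlapped, and 1 pig at 14d and 1 at 28d stood above the others of their stage. Without 14d replicate 1 the log2 fold change of 14d over 1d was 3.04, against 4.82 with it, and without 28d replicate 1 that of 28d was 4.13, against 4.98.

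From 35d on the pigs of a stage were closer, with the highest 1.22, 1.69 and 1.24 times the lowest at 35d, 120d and 180d. The values at 35d were 826, 677 and 791 TMM-scaled counts, those at 120d 436, 608 and 359, and those at 180d 750, 866 and 934. The mean was 765 ± 77.6 at 35d, 468 ± 127 at 120d and 850 ± 92.7 in the pigs of 180d (SD, n = 3 each). On this scale 120d lay below both 35d and 180d without overlap. Relative to clean reads, as reads per 1000000 of them (RPM), this was not so, since 35d had 8.78 ± 1.28 RPM, 120d had 8.26 ± 0.993 RPM and 180d had 9.84 ± 2.61 RPM, all overlapping. The 1d libraries had 0.0962 ± 0.0573 RPM.

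Ordered by the mean TMM-scaled count, 180d was followed by 35d, 28d, 14d, 120d, 21d, 7d and 1d. Neighbours in this order overlapped down to 21d. Below that the ranges were apart, since 21d ran from 358 to 608, 7d from 49.5 to 119 and 1d from 11.5 to 27.1. In whole spleen tissue, fewer cells of a type and less RNA per cell cannot be told apart, and this holds for every level given here.

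**Figure D2:**
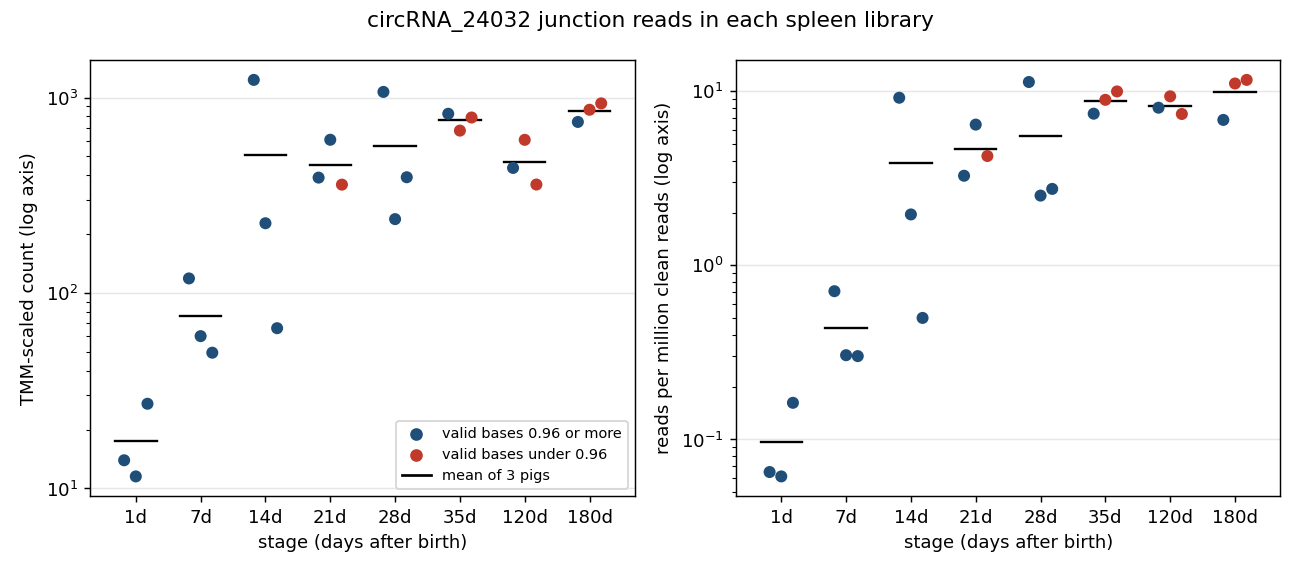
Reads of circRNA_24032 in each library as TMM-scaled counts (left) and as RPM of the clean reads (right), both on log axes, by stage in days after birth; points are libraries, lines are means of 3 pigs, and red points are libraries with a share of valid bases under 0.96. At 180d the TMM-scaled mean was 850 against 17.5 at 1d, and at 14d the pigs ran from 66.1 to 1231.

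The junction took 2.08% ± 0.180 of the back-splice reads of the table at 180d, against 0.0507% ± 0.0222 at 1d (SD, n = 3 pigs each). Its count ranked from 240 to 760 among the 3000 circRNAs at 1d and from 21 to 96 at 7d. It was the highest count in 10 libraries, among them all 6 of 35d and 180d, and among the 8 highest in 17 of the 18 libraries from 14d on. The exception was 14d replicate 3, where it ranked 69.

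Log2 fold changes over 1d came from 1 edgeR fit of all 24 libraries, in which every stage had its own coefficient. They were 2.10 at 7d (standard error 0.98), 4.82 at 14d (standard error 0.94), 4.65 at 21d (standard error 0.94) and 4.98 at 28d (standard error 0.94). In the older pigs they were 5.41 at 35d (standard error 0.95), 4.70 at 120d (standard error 0.93) and 5.56 at 180d (standard error 0.95), so the last is 47.3-fold. The 1d libraries are the base of all 7, with few reads in each, so that the standard errors share them. With clean reads as the depth in place of TMM the log2 fold change was 6.41 at 120d and 6.66 at 180d, while the median over all circRNAs went with it, at 1.99 against 0.26 with TMM at 120d and 1.27 against 0.20 at 180d. Relative to that median the value at 180d was 5.39 with clean reads and 5.37 with TMM.

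When age entered the fit as log2 days, the slope was 0.64 per doubling of age (standard error 0.15), the largest of all 3000, whose median was 0.03. A slope describes this course only roughly, since the log2 fold change over 1d was already 4.65 at 21d, against 5.56 at 180d. At 180d against 1d the log2 fold change was the second largest among the 1000 circRNAs whose mean TMM-scaled count was at least 10, after circRNA_37493. That circRNA overlaps CR1 and had 0 reads in every 1d library. Among all 3000, the rarer ones included, circRNA_24032 ranked 41. Of all circRNAs 9.3% were called at 180d against 1d (5.9% higher and 3.4% lower), at an adjusted p under 0.05 with a change of 2-fold or more, and 16.5% in the age trend. These shares are given as the background, and nothing is read from them for circRNA_24032.

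**Figure D3:**
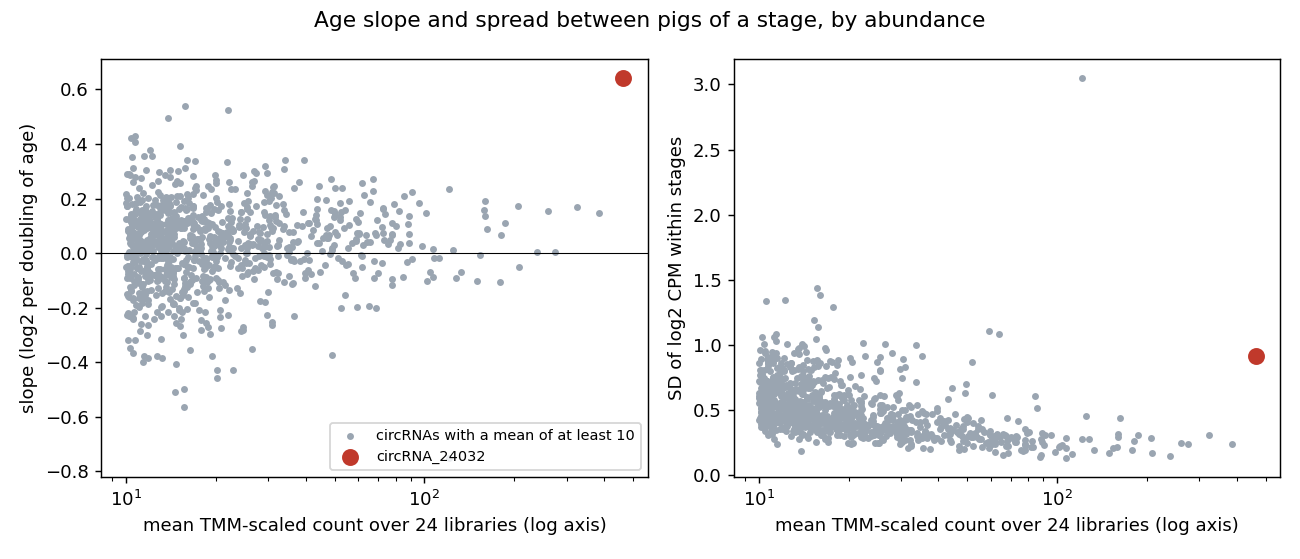
Slope on log2 age (left) and SD of log2 CPM within stages (right) against the mean TMM-scaled count on a log axis, for the 1000 circRNAs with a mean of at least 10; each point is a circRNA and circRNA_24032 is red. It has the highest mean and the steepest slope, 0.64, and a spread of 0.92, where the median of the 29 circRNAs with a mean of at least 100 is 0.24 and circRNA_30386 lies at 3.05.

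The spread between pigs of a stage was larger than for most circRNAs of high abundance. Log2 CPM is counts per 1000000 of the effective library size after TMM, with a prior count of 2. Its SD within stages, pooled over the 8 stages, was 0.92 for circRNA_24032. Over the 29 circRNAs with a mean of at least 100 the median of this SD was 0.24. Only circRNA_30386, which has no assigned host gene, had a larger SD among them than circRNA_24032, at 3.05. By stage that SD was largest in the pigs of 14d, at 2.10, and of 28d, at 1.10. It was 0.59 at 1d, 0.65 in the pigs of 7d and 0.41 in those of 21d. It was smallest in the pigs of 35d (0.15) and 180d (0.16), with 0.38 in those of 120d.

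A technical measure fell unevenly over the stages. The share of valid bases after trimming was under 0.96 in 7 libraries, 1 of 21d and 2 each of 35d, 120d and 180d. The remaining library of each of the last 3 stages had 826 TMM-scaled counts at 35d, 436 at 120d and 750 at 180d, each above the 27.1 that was highest at 1d. Without the 7 libraries the slope was 0.86 per doubling of age, against 0.64 with them.

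The circRNAs whose levels ran most alike were sought by Spearman's correlation of log2 CPM over the 24 libraries, among the 999 others whose mean TMM-scaled count was at least 10. These coefficients describe libraries that share their stage and depth, and circRNA_24032 had a coefficient of 0.60 with the library total itself. The 5 highest were circRNA_15328 of MAP3K2 (0.85), a kinase upstream of MAP kinases, circRNA_08861 of PRPSAP2 (0.85), an accessory protein of phosphoribosyl pyrophosphate synthesis, and circRNA_10837 of PHC3 (0.85), a Polycomb protein. They were followed by circRNA_06528 of RUBCNL (0.79), an autophagy regulator, and circRNA_37493 (0.79). The latter lies on chromosome 9 from 68044952 to 68045673 and overlaps CR1, a complement receptor gene, on the same strand. The median over the 999 was 0.16, and the range was from -0.84 to 0.85. With Pearson's correlation 2 of the 5 stayed among the first 5, and with clean reads as the depth 3 did.

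All 5 were less abundant than circRNA_24032. PRPSAP2 (circRNA_08861) had 80.1 ± 10.6 TMM-scaled counts at 180d, against 20.0 ± 3.35 at 1d (SD, n = 3 pigs each). RUBCNL (circRNA_06528) had 72.0 ± 7.43 at 180d, against 15.2 ± 3.34 at 1d. PHC3 (circRNA_10837) had 52.7 ± 9.89 at 180d, against 15.2 ± 4.01 at 1d. MAP3K2 (circRNA_15328) differed least, with 27.9 ± 4.79 at 180d, against 14.7 ± 7.55 at 1d. circRNA_37493 had 24.9 ± 7.71 at 180d and 0 reads in all 3 libraries of 1d.

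**Figure D4:**
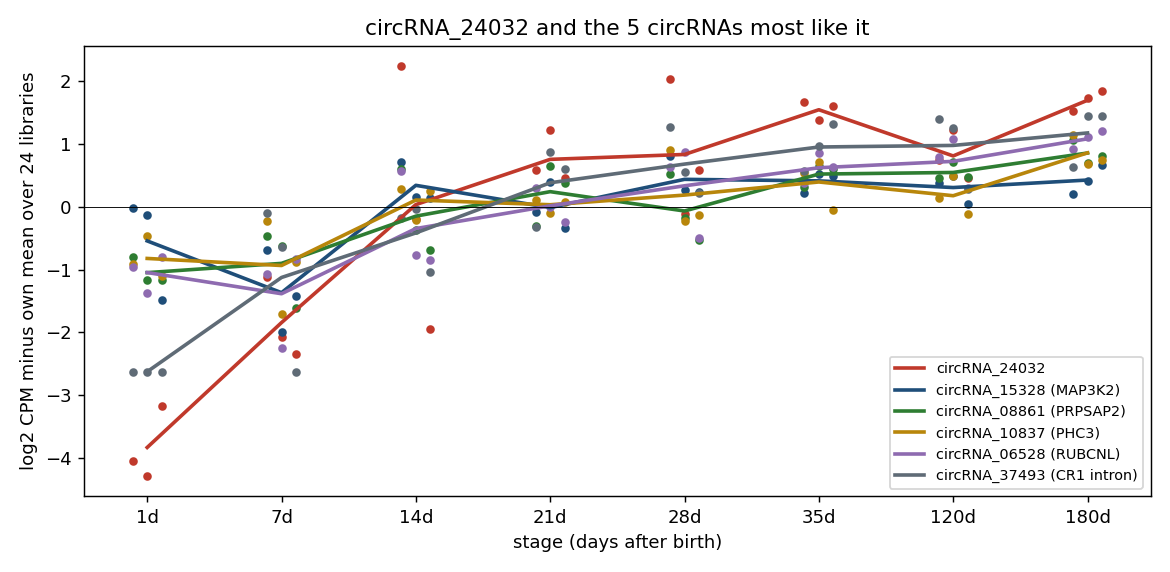
Level of circRNA_24032 and of the 5 circRNAs most like it in each library, as log2 CPM minus its mean over the 24 libraries, by stage in days after birth; points are libraries and lines are stage means. The points of circRNA_24032 run from -4.29 in a library of 1d to 2.24 in a library of 14d. The label of circRNA_37493 names a CR1 intron, but only its overlap with the gene was checked.

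B cell genes were followed through their own circRNAs, which come from other loci. Of 30 genes of B cell receptor signalling, 6 had circRNAs in the table, 8 in all. In the age trend, by edgeR's quasi-likelihood test with Benjamini-Hochberg adjustment over all 3000, 3 of the 8 rose and 0 fell, while of all circRNAs 10.7% rose and 5.77% fell. Their median slope was 0.18 per doubling of age, against 0.03 over all circRNAs. At 180d against 1d these counts were also 3 and 0 of 8, where 5.9% of all circRNAs were called higher and 3.4% lower. With clean reads as the depth all 8 rose and 0 fell, where 64.8% of all circRNAs were called (64.6% higher and 0.2% lower), and the median slope was 0.41, against 0.25 over all circRNAs. Without the 7 libraries of few valid bases 2 rose and 0 fell, where 3.9% of all were called (3.07% higher and 0.833% lower).

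CD22 (circRNA_30180) encodes an inhibitory co-receptor of B cells. It had 37.3 ± 9.30 TMM-scaled counts at 180d, against 14.1 ± 0.644 at 1d (SD, n = 3 pigs each), with a slope of 0.23 (standard error 0.05, edgeR adjusted p = 0.00107). BANK1 (circRNA_36034) encodes a scaffold protein of the B cell receptor and had 17.6 ± 11.5 at 180d, against 1.00 ± 1.74 at 1d, with a slope of 0.41 (standard error 0.08, edgeR adjusted p = 0.000152). VAV3 (circRNA_27247) encodes an exchange factor downstream of antigen receptors and had 8.29 ± 3.61 at 180d, whereas it had 0 reads in the 3 libraries of 1d. Its slope of 0.43 (standard error 0.12) had an edgeR adjusted p of 0.00674, and of 0.158 without the libraries with a share of valid bases under 0.96. The slopes of all 3 lay below the 0.64 of circRNA_24032, a difference that was not tested.

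The summed level of the B cell receptor signalling circRNAs ran from 116 to 128 TMM-scaled counts at 180d, against 39.8 to 59.3 at 1d. At 14d it was between 67.3 and 97.0, and at 28d between 84.3 and 128. circRNA_24032 stood at 5.86 to 7.44 times this sum at 180d, against 0.194 to 0.474 times at 1d. Between them the course was uneven, with 0.981 to 12.7 times at 14d and 2.83 to 10.3 times at 28d. At 35d it was 5.22 to 6.94 times and at 120d 3.04 to 5.73 times.

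The lists for other steps of the B cell lineage held 1 call each. Of 20 B cell transcription factor genes 5 had circRNAs, 6 in all, with a median slope of 0.02. In the age trend 0 of the 6 rose and 1 fell, where 10.7% of all circRNAs rose and 5.77% fell. The 1 that fell was BCL11A (circRNA_24498), a factor of early B cell development, with a slope of -0.25 (standard error 0.09, edgeR adjusted p = 0.0455), a call lost in 14 of 31 alternatives. With clean reads as the depth its slope was -0.014 (edgeR adjusted p = 0.907), and in the other 13 it was between -0.25 and -0.19. IKZF1 (circRNA_38660), which encodes Ikaros, had a slope of -0.10 (edgeR adjusted p = 0.122) and of 0.13 with clean reads as the depth. AFF3 (circRNA_23945), a transcription elongation factor gene expressed in lymphoid cells, had 0.12 (edgeR adjusted p = 0.149).

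Of 20 genes of plasma cells and antibody secretion 3 had circRNAs (ELL2, SEC24A and IGF1R), 6 in all, with a median slope of -0.04. PRDM1, XBP1, JCHAIN, MZB1 and SDC1 of this list had 0 circRNAs, so the amount of plasma cells is not measured here. Of these 6, 0 rose and 1 fell in the age trend, where 10.7% of all circRNAs rose and 5.77% fell. IGF1R (circRNA_02314), a growth factor receptor of plasma cells and many other cells, fell to 32.6 ± 8.97 TMM-scaled counts at 180d, against 61.7 ± 20.0 at 1d (SD, n = 3 pigs each), with a slope of -0.20 (standard error 0.04, edgeR adjusted p = 0.000106) that turned to 0.023 with clean reads as the depth. Without the 7 libraries of few valid bases its slope was -0.14 (edgeR adjusted p = 0.0789). SEC24A, a coat protein of vesicles that leave the endoplasmic reticulum, had 4 circRNAs. Those with the smallest p in the age trend, circRNA_22448 and circRNA_22453, had slopes of 0.16 and 0.10 (edgeR adjusted p = 0.0727 and 0.321).

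Of 21 genes of V(D)J recombination and the repair of DNA breaks 6 had circRNAs, 10 in all, with a median slope of 0.06. Of these 10, 1 rose and 0 fell in the age trend, where 10.7% of all circRNAs rose and 5.77% fell. PRKDC (circRNA_26532) encodes the DNA-dependent protein kinase that acts when the broken segment ends are joined. It had 12.9 ± 6.26 TMM-scaled counts at 180d, against 2.42 ± 2.13 at 1d (SD, n = 3 pigs each), with a slope of 0.32 (standard error 0.09, edgeR adjusted p = 0.00700, and 0.120 without the 7 libraries of few valid bases). ATM (circRNA_37085), a kinase that senses DNA breaks, had a slope of -0.15 (edgeR adjusted p = 0.088) and of 0.069 with clean reads as the depth. RIF1 (circRNA_15079), which protects break ends, had -0.22 (edgeR adjusted p = 0.109) and 0.010 with clean reads. With clean reads as the depth, calls in these 3 lists numbered 4 of 6, 3 of 6 and 8 of 10. All were higher with age, where 64.6% of all circRNAs were called higher. Without the 7 libraries there were 0 calls in each list, where 3.9% of all circRNAs were called.

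Few genes on the lists for other cell types had circRNAs in the table. Of 27 T and NK cell genes 1 had a circRNA (TOX), of 21 macrophage, monocyte and granulocyte genes 1 (ADGRE1) and of 21 stromal, muscle and endothelial genes 1 (FBXW7), while of 21 erythroid genes 2 had 8 (EPB41 and TFRC). The 8 circRNAs of EPB41 and TFRC summed to 45.9 to 60.7 TMM-scaled counts at 180d, against 108 to 143 at 1d. In the age trend on this scale 5 of the 8 fell and 0 rose, where 5.77% of all circRNAs fell and 10.7% rose. With clean reads as the depth 1 of the 8 fell and 1 rose, where 0.2% of all fell and 64.6% rose. Without the 7 libraries of few valid bases 0 of the 8 were called, where 3.9% of all were called. The circRNA of TOX had 11.2 to 26.7 at 180d, against 13.6 to 17.9 at 1d. The circRNA of ADGRE1 had 3.75 to 12.2 at 180d, against 0 to 9.88 at 1d. That of FBXW7 had 46.5 to 56.6, against 28.0 to 59.7, so that these 3 overlapped between the 2 stages. Circles of 1 or 2 genes do not measure the amount of a cell type. The part of any of these in the level of circRNA_24032 was not tested.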

How the data were processed

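Spleen RNA of 24 Meishan pigs was sequenced, 1 library per pig. The authors trimmed reads with cutadapt and checked them with FastQC. They used BWA for alignment to Sscrofa11.1 and took circRNAs from CIRI2, which looks for paired chiastic clipping and GT-AG signals. TopHat2 is also named for mapping in the paper, and in the submitters' processing notes. The paper names find_circ too, for describing the types and distribution of the circRNAs. The rule behind the 3000 circRNAs listed is not given in the sources used here. The deposited values are raw counts of back-splice junction reads, with no normalization, and 0 columns were left unused. Each column was tied to a sample by its title, and the stage was taken from the labels. Library totals of 16273 to 87867 reads set the precision, and the clean reads of each library in the study's sequencing summary (98.45 to 115.29 in units of 1000000) served as another depth.

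Counts were fitted in edgeR 4.0.16 (R 4.3.3, TMM, glmQLFit and glmQLFTest, limma 3.58.1) over all 24 libraries, once with a coefficient per stage and once on log2 of the age in days. P-values were adjusted by Benjamini-Hochberg over all 3000 circRNAs. A call needed an adjusted p under 0.05 and, between stages, a 2-fold change. A standard error is the log2 fold change divided by the square root of F. The libraries come from separate pigs. Junction bases and their copies were read from RefSeq's Sscrofa11.1 sequence and annotation, with chromosome 3 searched on both strands for the 30 bases on each side of the junction (splice signal required, up to 2 mismatches, with 0 and 4 as alternatives). Python 3.11.15 (pandas 2.3.3, matplotlib 3.10.9) and samtools 1.23.1 were used, and the fits were tested on simulated data. Alternatives were DESeq2 1.42.0 (size factors and Wald test), table totals or clean reads as depth, edgeR's filterByExpr, a replicate block, libraries with at least 0.96 valid bases, and each library left out.

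circRNA_24032, the gene lists and the rules were chosen with earlier results of these data known. Named besides it were the 5 circRNAs most like it by Spearman's correlation, the nearest circRNAs, any circRNA in an immunoglobulin or T cell receptor locus, and up to 3 circRNAs per B cell list with the smallest p in the age trend. The methods of the paper and the labels describe different library kits, and which was used was not settled here.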

Additional observations from a re-analysis of the deposited data

How the results depend on the processing

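With clean reads in place of TMM the log2 fold change of circRNA_24032 over 1d was 5.58 at 21d, 6.49 at 35d, 6.41 for the pigs of 120d and 6.66 for those of 180d, and its slope was 0.90, and without the 7 libraries under 0.96 valid bases the slope was 0.86. It was higher than at 1d at each later stage under every alternative run. Leaving out each of the 6 libraries of the stages compared gave 1.61 to 2.60 at 7d, for 14d 3.04 to 5.35, for 21d 4.38 to 5.18, for 28d 4.13 to 5.51, for 35d 5.19 to 5.95, for 120d 4.45 to 5.22, and for 180d 5.34 to 6.10, and leaving out each of all 24 gave a slope of 0.58 to 0.72. Called circRNAs, summed over the 7 comparisons with 1d, numbered 604 (335 to 629 with a library left out, 335 without 1d replicate 1 and 365 without 1d replicate 2), and 495 in the age trend (408 to 505). With clean reads these were 5045 and 1943, and without the 7 libraries 155 and 117. In the age trend with clean reads the slope was 0.13 for IKZF1 (circRNA_38660), 0.023 for IGF1R (circRNA_02314), 0.069 for ATM (circRNA_37085) and 0.010 for RIF1 (circRNA_15079), all negative with TMM, while the median of all circRNAs was 0.25 with clean reads and 0.03 with TMM. With a replicate block the slope of circRNA_24032 was 0.68, and 577 and 481 circRNAs were called. Replicate numbers showed no sign of pairing the pigs. Of 84 pairs of same-numbered libraries 1 correlated above 0.1, and 9 of 24 libraries correlated best with their own number. With counts mostly this low, the check cannot exclude a shared litter or batch. The donor-side copies with a GT numbered 6 with 0 mismatches, 8 with 2 and 9 with 4. Counts of 7 to 18 reads at 1d limit every fold change over that stage.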
